A study of Mus musculus with 11 samples.

Results

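The non-fibrillar interstitial collagens examined here are 10 genes chosen by name: Col6a1, Col6a2, Col6a3, Col8a1, Col8a2, Col12a1, Col14a1, Col15a1, Col16a1 and Col18a1. Every probe whose symbol in the platform annotation was 1 of these names was taken, 17 of the 45281 probes on the array. They covered 8 of the 10 genes, out of 19057 genes with a named probe. No probe carried the name Col6a3 or Col12a1, so these genes were not analysed here. Of the 17 probes, 15 passed the filter on dim probes, and all 8 covered genes were among the 12865 genes tested. Each gene is represented by its brightest probe by mean over all arrays, and the other probes are described separately.

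RNA of whole organs from adult BALB/C mice was hybridised to 11 Illumina bead arrays. They fell into fibrotic kidney, from mice whose ureter was obstructed on 1 side (n = 2), healthy kidney (n = 3), fibrotic lung after bleomycin given into the trachea (n = 3) and healthy lung (n = 3). Tying off a ureter scars the kidney behind it, and bleomycin is a drug that injures the lung lining. All mice were labelled female, and each array of a group came from its own mouse. By their titles, the healthy kidneys and healthy lungs came from the same 3 mice. Neither the bleomycin dose nor the time after each injury is given in the labels.

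These collagens do not build the thick banded fibrils of scar tissue. They lie between and around them and link fibrils to each other, to cells and to basement membranes. Collagen VI, a trimer of an alpha 1, an alpha 2 and a further chain, forms beaded microfilaments around cells in most connective tissue. Collagen VIII is a short-chain, network-forming collagen of vessel walls, made of alpha 1 and alpha 2 chains. Collagens XII, XIV and XVI sit on fibril surfaces or link fibrils to other matrix. Collagens XV and XVIII are proteoglycan collagens of basement membrane zones, and collagen XVIII is the precursor of endostatin.

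In the reference annotation, Col6a1, Col6a2 and Col18a1 lie on chromosome 10, and Col6a1 and Col6a2 have 0 protein-coding genes between them. Col8a2, Col15a1 and Col16a1 lie on chromosome 4, Col8a1 on 16 and Col14a1 on 15. The 250 bases before the transcript start are shown for the neighbouring Col6a1 and Col6a2, whose levels ran in parallel over the arrays, and for Col8a1 and Col15a1, the members with the largest rises in fibrotic kidney. They come from RefSeq's promoter table on GRCm38.p6 (chr10:76726045-76726294, chr10:76623405-76623654 and chr16:57754738-57754987 on the minus strand, chr4:47207762-47208011 on the plus strand), which held 8 of the 10 genes.
Col6a1: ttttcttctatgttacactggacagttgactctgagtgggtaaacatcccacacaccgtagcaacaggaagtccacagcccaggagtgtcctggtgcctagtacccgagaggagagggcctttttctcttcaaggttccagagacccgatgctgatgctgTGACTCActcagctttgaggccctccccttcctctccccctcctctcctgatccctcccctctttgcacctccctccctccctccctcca
Col6a2: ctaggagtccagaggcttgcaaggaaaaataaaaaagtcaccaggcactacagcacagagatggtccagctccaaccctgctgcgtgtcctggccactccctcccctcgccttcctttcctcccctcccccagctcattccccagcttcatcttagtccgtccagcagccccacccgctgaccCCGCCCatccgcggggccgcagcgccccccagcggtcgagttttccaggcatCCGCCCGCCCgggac
Col8a1: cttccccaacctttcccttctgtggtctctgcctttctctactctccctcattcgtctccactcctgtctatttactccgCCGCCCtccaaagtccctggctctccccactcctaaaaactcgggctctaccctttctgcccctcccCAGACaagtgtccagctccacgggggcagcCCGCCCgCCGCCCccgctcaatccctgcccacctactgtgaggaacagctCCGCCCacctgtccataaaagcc
Col15a1: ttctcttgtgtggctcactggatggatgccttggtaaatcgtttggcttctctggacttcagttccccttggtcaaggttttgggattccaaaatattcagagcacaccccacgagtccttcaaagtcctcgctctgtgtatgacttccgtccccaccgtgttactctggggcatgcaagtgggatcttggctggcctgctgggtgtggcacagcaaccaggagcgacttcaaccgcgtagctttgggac

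Capitals mark matches, on either strand, to 4 short motifs: GGGCGG (the GC box bound by Sp factors), TATAAA (the TATA box), GTCTG (a Smad-binding core) and TGANTCA (the AP-1 element, N being any base). The Col6a1 window held 1 match to TGANTCA, and the Col6a2 window held 3 matches to GGGCGG, with 2 bases shared between overlapping matches. The table also holds another Col6a2 start, whose window held 1 match to GGGCGG and 1 to GTCTG. The neighbouring genes thus shared no motif of the 4 in these windows. The Col8a1 window held 4 matches to GGGCGG and 1 to GTCTG, and the Col15a1 window held none of the 4 motifs. Among all 32851 windows of this length, 32.7% held GGGCGG, 12.4% TATAAA, 42.2% GTCTG and 6.75% TGANTCA. A match describes these letters and is not evidence of a bound site.

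Raw median intensity per array was 95.2 to 125.1, and 17036 to 21504 probes per array were above background (detection p under 0.05). Arrays of 1 group correlated at r = 0.935 to 0.988 over the genes tested. The organ labels fitted the defining transcripts: Umod, of the loop of Henle, had log2 levels of 14.39 and 14.56 in the fibrotic and 14.37 to 14.58 in the healthy kidneys, and Sftpd, a surfactant protein of alveolar type II cells, 14.47 to 14.53 in the fibrotic and 14.58 to 14.76 in the healthy lungs. Some arrays also carried transcripts of another organ, or went against their labels. In both fibrotic kidneys the airway transcript Scgb1a1 reached 12.48 and 11.35, whereas it was not above background in any healthy kidney. Fibrotic lung 1 carried kidney transcripts (Umod 9.19, Slc12a1 7.17), and healthy lung 3 carried liver transcripts (Apoa1 13.94). All healthy kidneys also carried the liver transcripts Apoa1 (8.62, 7.58 and 6.79) and Mup3 (10.05, 9.26 and 7.94). Neither was above background in a fibrotic kidney. The liver transcript Fga went the other way, at 13.41 in fibrotic kidney 2 against 9.09 to 9.33 in healthy kidneys. Although all mice were labelled female, the Y-linked Eif2s3y was at 9.06 to 9.78 in all healthy organs and in fibrotic lungs 1 and 2. It was not above background in fibrotic lung 3 and the fibrotic kidneys, where Xist, the X-inactivation transcript, was at 9.03 in that lung and at 10.83 and 10.56 in those kidneys. In the kidney comparison this difference lies between the same groups as the obstruction, so the 2 cannot be told apart. Comparisons of kidney with lung that use the fibrotic kidneys carry this limit too. Of the fibrotic lungs, only lung 3 matched those kidneys in these transcripts. The lung transcripts in both fibrotic kidneys, and Apoa1 and Mup3 in the healthy kidneys, likewise cannot be told apart from the obstruction.

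The first comparison asked how these collagens changed in the obstructed kidney. All 8 measured genes were higher in fibrotic than in healthy kidneys past the threshold (limma, adjusted p under 0.05). Over all genes tested, 23.2% were called higher and 38.8% were called in either direction. The median log2 change of the 8 members was 1.93, against 0.10 over all genes. Levels below are log2 normalised intensities, in which 1 unit is a doubling, and changes are differences of these levels with the SE of the fit. In whole-organ RNA, more cells of a type and more RNA per cell cannot be told apart.

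**Figure D1:**
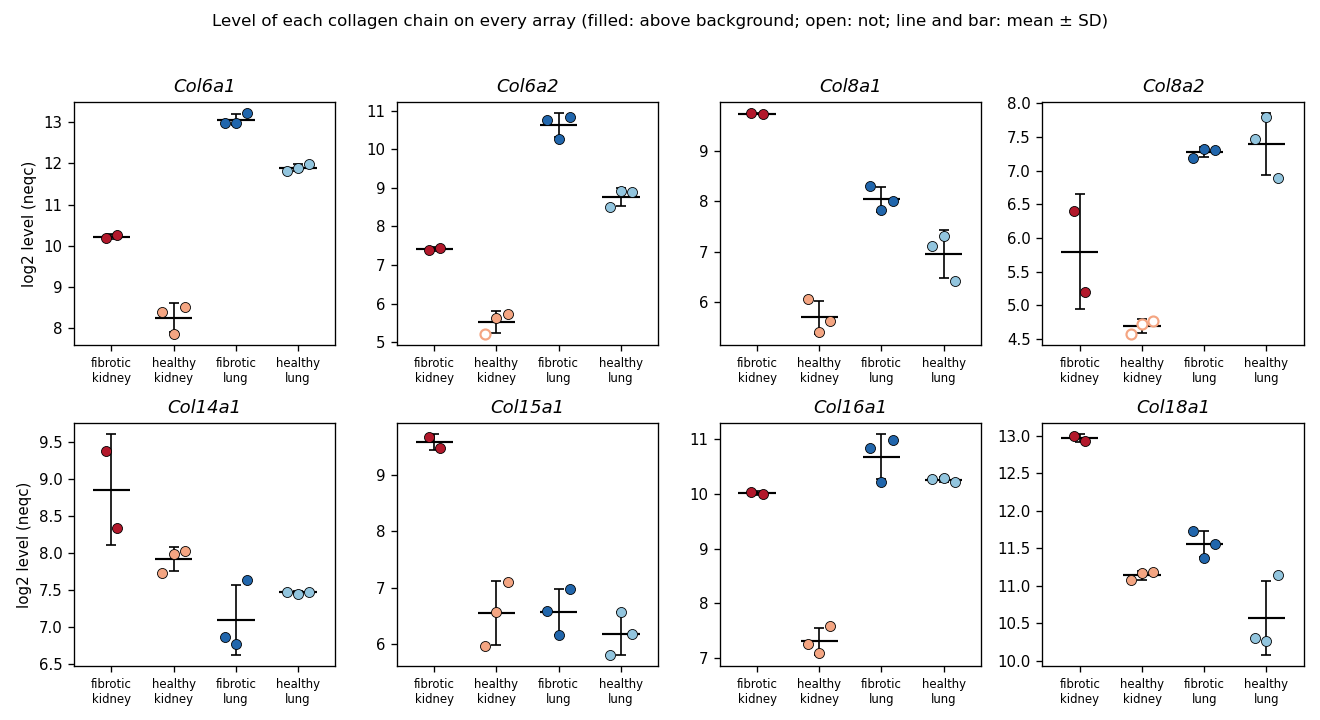
Log2 normalised level of each collagen chain (vertical axis) on each array, grouped as fibrotic kidney, healthy kidney, fibrotic lung and healthy lung. Filled points are above background, open points are not, and the line and bar give the mean and SD. All 8 chains were higher in both fibrotic kidneys than in every healthy kidney. The share of all genes that separated in this way was not counted. Col8a2, Col14a1, Col15a1 and Col16a1 overlapped between fibrotic and healthy lungs.

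Collagen VI chains rose together in the obstructed kidney. Col6a1, the alpha 1 chain, had log2 levels of 10.18 and 10.26 in fibrotic kidneys, against 8.39, 7.85 and 8.51 in healthy kidneys. Col6a2, its partner alpha 2 chain, had 7.38 and 7.44 in fibrotic kidneys, against 5.21, 5.63 and 5.73 in healthy kidneys, of which the first was not above background. The groups did not overlap for either chain, and the fibrotic arrays lay within 0.1 of each other. The changes were 1.97 ± 0.20 for Col6a1 (adjusted p = 5.45e-05) and 1.89 ± 0.22 for Col6a2 (adjusted p = 0.00015), or 3.92-fold and 3.70-fold.

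The collagen VIII alpha 1 chain changed most. Col8a1 had log2 levels of 9.73 on both fibrotic kidney arrays, against 6.06, 5.41 and 5.63 in healthy kidneys. Its change of 4.03 ± 0.28 (adjusted p = 8.78e-06) is 16.35-fold, and 0.288% of all genes tested had a larger change. The healthy levels lay near the lowest signals detected on those arrays (5.40, 5.34 and 5.23), so the size of this change is uncertain. Over the alternative settings the Col8a1 change ran from 2.71 to 4.32 and kept its call in all 22. Its partner chain was dim in kidney. Col8a2 reached 6.40 in one fibrotic kidney and 5.19 in the other, and was not above background in any healthy kidney (4.57, 4.73 and 4.78). Only a bound can be given, of at least 1.39-fold, taken from the fibrotic mean against the lowest signal detected on each healthy array. The adjusted p of 0.0235 is that of the fitted change of 1.10, not of the bound. The second fibrotic kidney, at 5.19, lay below those lowest detected signals (5.40, 5.34 and 5.23), so the bound rests on the first. Without the first fibrotic kidney the Col8a2 change was 0.50, with an adjusted p of 0.217.

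Of the fibril-associated chains, Col16a1 rose far more than Col14a1. Col16a1, which binds cell-surface integrins, had log2 levels of 10.04 and 10.00 in fibrotic kidneys, against 7.25, 7.08 and 7.58 in healthy kidneys, a change of 2.72 ± 0.23 (adjusted p = 2.17e-05). Col14a1, which binds the fibril surface through decorin, had 9.39 and 8.33 in fibrotic kidneys, against 7.73, 7.99 and 8.04 in healthy kidneys. Its fibrotic arrays lay further apart than the mean change, and the lower stood only just above the highest healthy array. The Col14a1 change of 0.94 ± 0.32 (adjusted p = 0.0383) was 0.41 without the first fibrotic kidney, with an adjusted p of 0.332. Its call was lost in 10 of 22 alternative settings, in which the adjusted p ran from 0.00719 to 0.332.

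Both basement membrane zone collagens rose. Col15a1 had log2 levels of 9.67 and 9.47 in fibrotic kidneys, against 5.97, 6.58 and 7.10 in healthy kidneys. This is a change of 3.02 ± 0.34 (adjusted p = 0.000115), or 8.14-fold, and its healthy arrays were the most spread of any member in kidney (SD 0.57). Col18a1, the endostatin precursor, had 13.00 and 12.93 in fibrotic kidneys, against 11.08, 11.17 and 11.18 in healthy kidneys. Both groups were tight, and the change was 1.82 ± 0.24 (adjusted p = 0.000301), or 3.53-fold.

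The count in kidney was 6 to 8 over the alternative settings. Starting from the processed intensities that the authors deposited, all genes had a median change of -0.24 and 32.1% of the called genes were higher, against 59.8% in the quantile-normalised values. With scaling to a common median the all-gene median was 0.27 and 77.1% of the calls were higher. With the processed intensities, which differ from the main values in background, normalisation and floor, 6 members were called higher. The calls lost there were those of Col8a2 (0.65, adjusted p = 0.17) and Col14a1 (0.74, adjusted p = 0.0965). With the common median, which changes the scaling alone, all 8 kept their calls.

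In the fibrotic lung fewer members moved. Of the 8 genes, 4 were higher and 0 lower in fibrotic than in healthy lungs, where 18.9% of all genes were called higher and 18.9% lower (37.8% in either direction). The members called were both collagen VI chains, Col8a1 and Col18a1. The median change of the 8 was 0.70, against -0.03 over all genes. With the authors' processed intensities the all-gene median was 0.48 and 6 members were called higher, among calls that were 88% higher, against 50.1% in the quantile-normalised values. Scaling to a common median gave 0.20, 5 members and 75.9%.

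Collagen VI rose in lung as well, from much higher levels. Col6a1 had log2 levels of 12.98, 12.98 and 13.22 in fibrotic lungs, against 11.81, 11.89 and 11.99 in healthy lungs, a change of 1.16 ± 0.17 (adjusted p = 0.000702). Col6a2 had 10.76, 10.27 and 10.83 in fibrotic lungs, against 8.51, 8.92 and 8.89 in healthy lungs, a change of 1.85 ± 0.20 (adjusted p = 0.00014). No array overlapped for either chain. The Col6a2 change was the largest of any member in lung, and 2% of all genes tested had a larger one.

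Col8a1 and Col18a1 also rose in lung. Col8a1 had log2 levels of 8.29, 7.82 and 8.00 in fibrotic lungs, against 7.11, 7.32 and 6.42 in healthy lungs, a change of 1.08 ± 0.25 (adjusted p = 0.00666). The lowest healthy lung for Col8a1 was the array that carried liver transcripts. Without it and the fibrotic lung that carried kidney transcripts, the Col8a1 change was 0.69 (adjusted p = 0.0515), and 3 members were called higher. Col18a1 had 11.73, 11.38 and 11.56 in fibrotic lungs, against 10.31, 10.27 and 11.15 in healthy lungs, a change of 0.98 ± 0.22 (adjusted p = 0.00572). The highest healthy lung for Col18a1 was that same array with liver transcripts, and the groups did not overlap. Without fibrotic lung 3, the only lung with Xist at a high level, 4 members were called.

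The remaining 4 chains did not pass the test in lung in the fit over all arrays, and their arrays overlapped. Col16a1 had log2 levels of 10.84, 10.21 and 10.99 in fibrotic lungs, against 10.28, 10.30 and 10.21 in healthy lungs, a difference of 0.42 (95% interval -0.04 to 0.87). Col15a1 had 6.58, 6.16 and 6.97 in fibrotic lungs, against 5.81, 6.57 and 6.17 in healthy lungs, a difference of 0.39 (interval -0.29 to 1.07). For both, the interval reaches a 1.5-fold rise and more, so a moderate change is not excluded at this number of arrays. Col8a2 had 7.19, 7.31 and 7.31 in fibrotic lungs, against 7.47, 7.80 and 6.90 in healthy lungs, a difference of -0.12 (interval -0.78 to 0.54). Col14a1 had 6.87, 6.77 and 7.64 in fibrotic lungs, against 7.48, 7.45 and 7.48 in healthy lungs, a difference of -0.37 (interval -1.0 to 0.26). The adjusted p-values of these 4 were 0.138 to 0.785. Col16a1 passed without fibrotic lung 2 (0.65, adjusted p = 0.0167), under scaling to a common median (0.75, adjusted p = 0.0154) and with the authors' processed intensities (0.94, adjusted p = 0.00326). Col15a1 passed with the processed intensities (1.06, adjusted p = 0.0173). The direction of Col8a2 turned under scaling to a common median, and those of Col8a2 and Col14a1 with the authors' processed intensities.

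**Figure D2:**
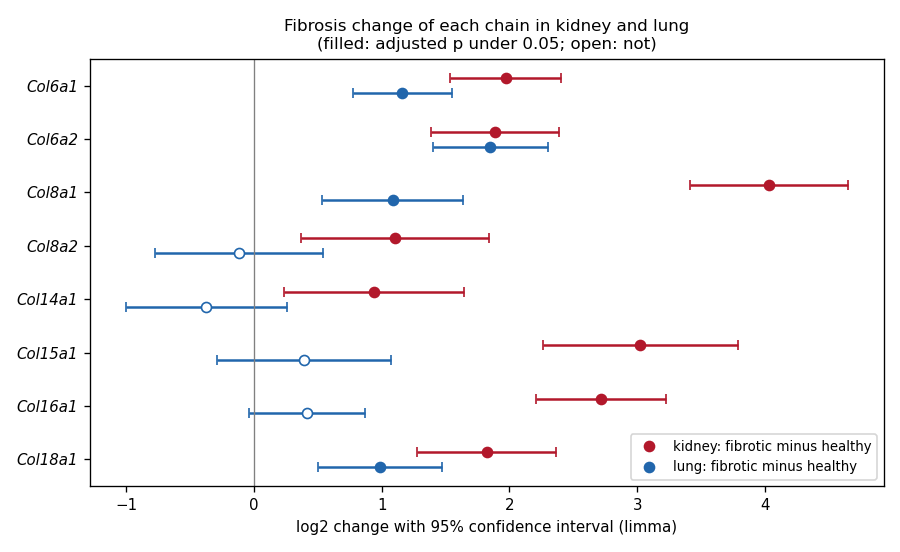
Log2 change with its 95% confidence interval (horizontal axis) for each collagen chain in kidney (fibrotic minus healthy, upper symbol) and in lung (fibrotic minus healthy, lower symbol); filled symbols have an adjusted p under 0.05. The 8 kidney changes run from 0.94 to 4.03 and the 8 lung changes from -0.37 to 1.85.

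**Figure D3:**
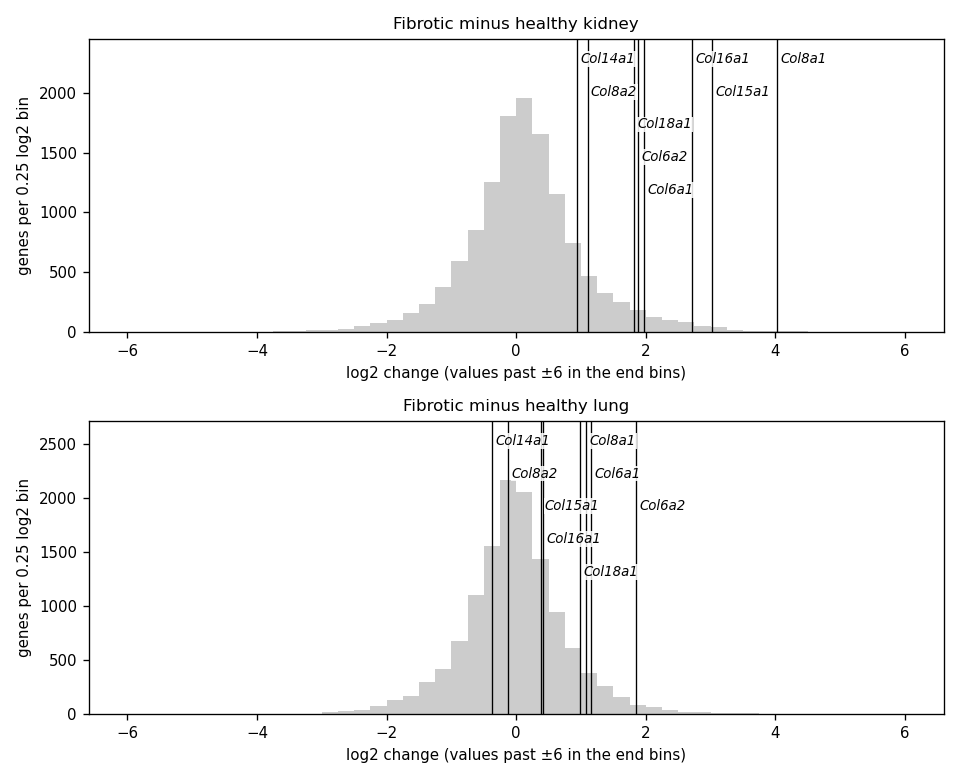
Number of genes (vertical axis) per 0.25 of log2 change (horizontal axis) over the 12865 genes tested, fibrotic minus healthy kidney above and fibrotic minus healthy lung below, with a line at each collagen chain. The members lie to the right of the bulk in kidney, with Col8a1 at 4.03, whereas in lung Col14a1 and Col8a2 lie below 0 and Col6a2 is farthest right at 1.85.

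The next comparison asked whether the 2 organs changed by different amounts, by testing the kidney change minus the lung change in the same fit. The difference was above 0 and past the threshold for 5 members, below 0 and past it for 0, against 23.9% of all genes called above 0 and 40% called in either direction. The differences were 2.95 ± 0.37 for Col8a1 (adjusted p = 0.000259), 2.63 ± 0.46 for Col15a1 (adjusted p = 0.00148) and 2.30 ± 0.31 for Col16a1 (adjusted p = 0.000337). These 3 kept their calls in all 21 alternative settings run. Col14a1 (1.31 ± 0.43, adjusted p = 0.0317) and Col6a1 (0.81 ± 0.26, adjusted p = 0.0314) passed more narrowly. Leaving out fibrotic kidney 1, fibrotic lung 1 or fibrotic lung 2 left 3 members called, with neither Col14a1 nor Col6a1 among them.

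The other chains did not pass this test. Col8a2 stood at 1.22 (adjusted p = 0.0502), and Col18a1 at 0.84 (adjusted p = 0.0656). Both lay near the threshold: Col8a2 passed in 6 of 21 alternative settings and Col18a1 in 3, and 7 members were called above 0 with trend and robust variance. Col6a2 differed by 0.04 (95% interval -0.63 to 0.71), so its kidney and lung changes were not distinguishable within this interval. With the authors' processed intensities the median of all genes in this contrast was -0.77 and 14.3% of the calls were above 0, against 59.6% in the quantile-normalised values. With those values Col8a1, Col15a1 and Col16a1 were still called above 0. Col6a2 was called below 0 with them (-0.86, adjusted p = 0.0249) and with background correction alone left out (-0.74, adjusted p = 0.0209), but not with common-median scaling (-0.037, adjusted p = 0.927).

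Before injury the organs already differed in most members. In healthy kidneys against healthy lungs, 5 members were lower and 1 higher, where 33.5% of all genes were called lower and 28.2% higher (61.6% in either direction). The healthy kidney minus healthy lung difference was -3.65 ± 0.17 for Col6a1, -3.25 ± 0.20 for Col6a2 and -2.96 ± 0.20 for Col16a1. Col8a2 was at least 4.20-fold lower in healthy kidney, where no array was above background, and Col8a1 differed by -1.25 ± 0.25 (adjusted p = 0.00132). All 5 members called lower were lower in every healthy kidney than in any healthy lung. How many of all genes separated in this way was not counted. Col18a1 was higher in healthy kidney by 0.57 (adjusted p = 0.0429), with overlapping arrays. That Col18a1 call was lost in 10 of 21 alternative settings. Col14a1 (0.45, adjusted p = 0.19) and Col15a1 (0.37, adjusted p = 0.327) did not pass, although Col14a1 was higher in every healthy kidney than in any healthy lung.

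After injury the members divided evenly. In fibrotic kidneys against fibrotic lungs, 4 members were higher and 4 lower, where 22.5% of all genes were called higher and 20.9% lower (43.4% in either direction). Those higher were Col15a1 (3.00 ± 0.34), Col14a1 (1.77 ± 0.32), Col8a1 (1.70 ± 0.28) and Col18a1 (1.41 ± 0.24). Those lower were Col6a2 (-3.21 ± 0.22), Col6a1 (-2.84 ± 0.20), Col8a2 (-1.48 ± 0.33) and Col16a1 (-0.66 ± 0.23, adjusted p = 0.0387). The adjusted p-values of the 7 others ran from 2.41e-06 to 0.00495, and the Col16a1 call was lost in 8 of 21 alternative settings. This contrast and the preceding ones share arrays, so they are not independent.

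For Col6a1 and Col6a2 the order from the highest level was fibrotic lung, healthy lung, fibrotic kidney and healthy kidney, and no neighbours overlapped. Col16a1 had the same order, with fibrotic and healthy lungs overlapping, and Col8a2 had healthy lung first, overlapping with fibrotic lung. In these 4 genes the fibrotic kidney stayed below every lung array. In the other 4 the fibrotic kidney was highest and above every lung array. Col8a1 followed with fibrotic lung, healthy lung and healthy kidney, without overlap between neighbours. Col18a1 and Col15a1 followed with fibrotic lung, healthy kidney and healthy lung. In Col15a1 these 3 groups overlapped, and in Col18a1 the 2 healthy organs did. Col14a1 followed with healthy kidney, healthy lung and fibrotic lung, the last 2 overlapping. In Col8a1 the healthy kidney was the lowest group of all and the fibrotic kidney the highest. How many of all genes had the fibrotic kidneys above or below every lung array was not counted.

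The levels of these genes fell into 2 runs over the 11 arrays. Col6a1 correlated with Col6a2 at r = 0.984, with Col16a1 at 0.928 and with Col8a2 at 0.919. Col15a1 correlated with Col18a1 at 0.883 and with Col14a1 at 0.801. Col8a1 stood between, at 0.733 with both Col15a1 and Col18a1, 0.691 with Col16a1 and 0.448 with Col6a1. Col6a1 with Col15a1 gave -0.188. The 2 chains of collagen VIII correlated at 0.350, against 0.984 for the 2 collagen VI chains. The points share organ and disease state, so these values describe the groups as much as the genes.

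Over all genes tested, each member had close parallels by the same measure, Pearson's r of log2 level over the 11 arrays. They were Ifitm1, Cep78 and Serpinb6b for Col6a1 (0.993, 0.991 and 0.989), and Tuba1a, Rassf2 and Ifitm2 for Col6a2 (0.990, 0.990 and 0.989). For Col8a2 they were Zfp521, Paip2b and Zfpm2 (0.988, 0.987 and 0.987), and for Col16a1 Cdk2, Timeless and Fam217b (0.988, 0.988 and 0.986). These 4 members have a large difference between the healthy organs, which this measure includes. The likeness was lower for Col8a1 (Smtnl2 0.969, Zfp202 0.965, Chd4 0.952), Col15a1 (Stra6 0.952, Cenpf 0.951, Cdh6 0.949), Col18a1 (Mex3a 0.951, Prmt7 0.939, Thoc6 0.939) and Col14a1 (Vps45 0.946, Emc10 0.942, Vav3 0.934).

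**Figure D4:**
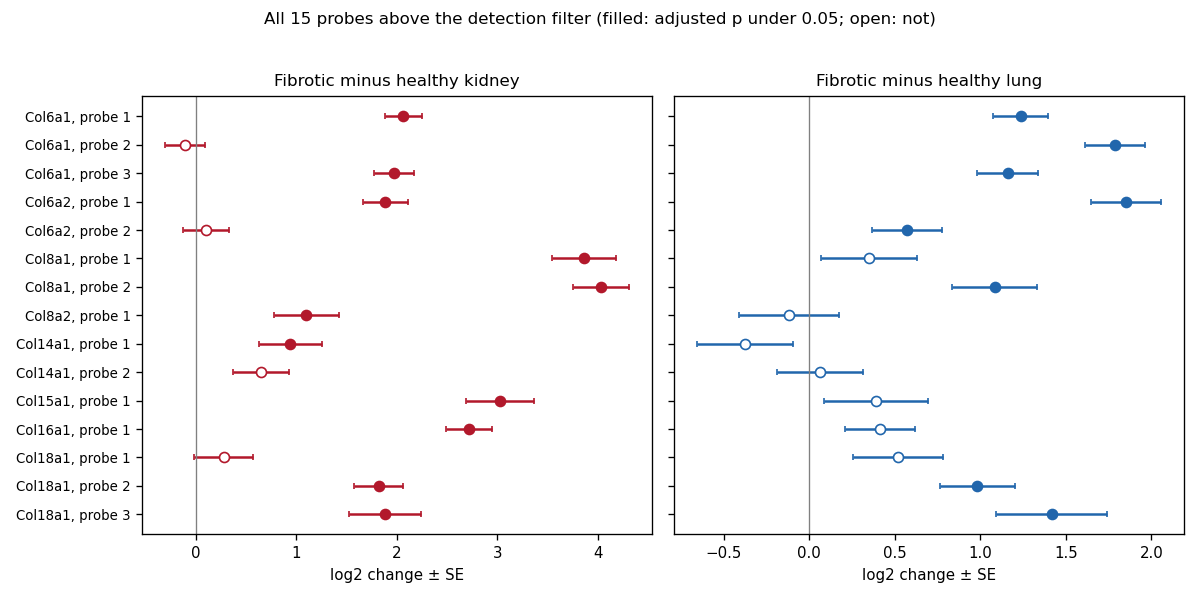
Log2 change ± SE (horizontal axis) for each of the 15 probes above the filter, fibrotic minus healthy kidney on the left and fibrotic minus healthy lung on the right; probes of a gene are numbered by their ID, and filled symbols have an adjusted p under 0.05 over all probes. In kidney 11 probes were called and in lung 8, and probes of Col6a1, Col6a2, Col8a1, Col14a1 and Col18a1 disagree in at least 1 organ.

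Several genes had more than 1 probe, and these did not always move alike. In a fit over all 24396 probes, 11 of the 15 member probes were higher in fibrotic than in healthy kidneys, against 19.8% of all probes, and 8 in fibrotic than in healthy lungs, against 20.2%. The second Col6a1 probe (ILMN_2589422) was not above background in any kidney or in any healthy lung, yet had log2 levels of 6.30, 6.34 and 6.88 in fibrotic lungs, at least 2.89-fold higher (adjusted p = 5.72e-05). It is the 1 member probe whose kidney-minus-lung difference was called below 0 (-1.89, adjusted p = 0.000291), while the first Col6a1 probe followed the brightest one (2.07 in kidney, 1.24 in lung). With all probes of a gene averaged, the Col6a1 difference between organs was -0.08 (adjusted p = 0.778) in place of 0.81. The second Col6a2 probe (ILMN_1258759) differed by 0.10 in kidney (adjusted p = 0.775) and by 0.57 in lung (adjusted p = 0.0457).

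The first Col8a1 probe (ILMN_1255925) rose by 3.86 in kidney and stood at 0.35 in lung (adjusted p = 0.366), so the lung rise of Col8a1 rests on its second, brighter probe. That first probe was above background in 1 of the 3 healthy kidneys. The second Col14a1 probe (ILMN_2591027) gave 0.65 in kidney (adjusted p = 0.0889) and 0.06 in lung, and did not pass in either. The third Col18a1 probe (ILMN_2937542) rose by 1.88 in kidney (adjusted p = 0.00209) and by 1.42 in lung (adjusted p = 0.00572). The first (ILMN_1225839) was not called in either organ, with 1 fibrotic kidney and 2 fibrotic lungs above background. Both probes of Col8a2 that failed the filter were above background on at most 1 of the 11 arrays. Which part of each transcript a probe reads was not analysed here.

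The fibrillar collagens were followed as a comparison. Over all genes, 23.2% were called higher and 15.6% lower in kidney. Of 10 fibrillar collagens tested, 4 were higher and 2 lower in fibrotic than in healthy kidneys. Their median change was 0.47, against 8 of 8 higher and 1.93 for the members. The main scar collagens were among the higher ones. Col1a1, the chief chain of collagen I, rose by 4.20 ± 0.48 (adjusted p = 0.000116), Col3a1 by at least 7.83-fold (adjusted p = 1.48e-05) and Col5a1, of the fibril core, by 2.69 ± 0.31 (adjusted p = 0.000133). Among healthy kidneys Col1a1 was above background only in kidney 3, so the size of its rise is uncertain. Col1a2, the other chain of collagen I, had log2 levels of 5.54 and 5.71 in fibrotic kidneys, against 5.09, 5.01 and 5.29 in healthy kidneys. Col27a1 fell by 1.10 and Col11a2 by at least 1.38-fold. In lung, 5 of the 10 were higher in fibrotic than in healthy organs, where 18.9% of all genes were higher. The median change was 0.62, close to the 0.70 of the members. The fitted lung rise of Col5a2, 3.11 ± 0.20, exceeded that in kidney (test of the kidney change minus the lung change -1.78, adjusted p = 0.00108). The direction is opposite to that of Col8a1, Col15a1 and Col16a1. However, Col5a2 was not above background in any healthy kidney, and among healthy lungs only in lung 3. The size of both rises, and of their difference, is therefore uncertain.

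Of 8 other non-fibrillar chains tested, 3 were higher and 0 lower in fibrotic than in healthy kidneys, where 23.2% of all genes were higher. They were Col7a1, of anchoring fibrils (1.97, adjusted p = 0.00267), Col17a1, of hemidesmosomes (at least 2.29-fold, adjusted p = 0.00409), and Col26a1 (1.77, adjusted p = 0.00136). In fibrotic against healthy lungs, Col7a1 (1.29, adjusted p = 0.0135) and Col28a1 (at least 2.29-fold, adjusted p = 0.000605) were higher and 0 were lower. The median changes of this list were 0.16 in kidney and 0.09 in lung, below those of the members in both organs. Col9a2, Col13a1 and Col28a1 were not above background in any kidney, and Col26a1 was not in any lung. These medians thus include chains without detected signal. No test of the lists against each other was made.

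Transcripts of proteins that bind collagens were followed too. Of 19 matrix partners and receptors tested, 9 were higher and 0 lower in fibrotic than in healthy kidneys, where 23.2% of all genes were higher and 15.6% lower. In fibrotic against healthy lungs 2 were higher, 6 lower and 11 not called, where 18.9% of all genes were called in each direction. In kidney, biglycan and decorin, small proteoglycans that bind collagen VI, rose by 1.75 ± 0.16 (Bgn) and 1.82 ± 0.32 (Dcn). Antxr1 and Antxr2, the anthrax toxin receptors, which bind collagen VI, rose by 1.57 ± 0.23 and 1.62 ± 0.28. Itga11, a fibroblast integrin chain for fibrillar collagen, rose by at least 2.26-fold (adjusted p = 0.000966). In lung, Antxr1 fell by 1.63 ± 0.20 (adjusted p = 0.000277) while both collagen VI chains rose. Itga1, a collagen-binding integrin chain, fell there by 1.67 ± 0.18 (adjusted p = 0.000148) and Tnxb, a tenascin that bridges fibrils, by 1.29 ± 0.15 (adjusted p = 0.000222). Dcn stood at -0.47 in lung (adjusted p = 0.227). Tnc, a tenascin of healing tissue, rose in both organs, by 4.67 ± 0.82 in kidney and 5.89 ± 0.74 in lung. Its levels in the fibrotic kidneys were far apart, at 8.36 and 11.54. Among healthy kidneys Tnc and Antxr1 were above background only in kidney 3, so the sizes of their kidney rises are uncertain. The kidney-minus-lung difference was 3.20 ± 0.31 for Antxr1 (adjusted p = 6.51e-05) and 2.29 ± 0.43 for Dcn (adjusted p = 0.0021). The size of the Antxr1 difference carries the same limit as its kidney rise.

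Markers of the cells that make or surround these collagens were followed too. Over all genes, 23.2% were called higher and 15.6% lower in fibrotic kidney, and 18.9% in each direction in fibrotic lung. Of 14 fibroblast and pericyte markers, 7 were higher and 1 lower in fibrotic than in healthy kidneys, among them Pdgfrb (2.37 ± 0.31) and Pdgfra (1.49 ± 0.22), receptors of mesenchymal cells. Their summed linear level was 9260 to 11700 in fibrotic and 2510 to 3830 in healthy kidneys, with Dpt and Fap not above background in any healthy kidney. In lung, 1 of the 14 was higher and 2 lower, smaller shares than over all genes. The sums there were 21600 to 26600 in fibrotic and 15500 to 24700 in healthy lungs. Smooth muscle markers were higher for 4 of 7 in fibrotic kidney and 1 of 7 in fibrotic lung, with 0 lower in either. Endothelial markers were higher for 4 and lower for 1 of 9 in fibrotic kidney, and lower for 6 and higher for 0 of 9 in fibrotic lung. Of 11 macrophage markers, 9 were higher in fibrotic kidney and 8 in fibrotic lung. Their sums were 21400 to 25400 in fibrotic against 2540 to 3320 in healthy kidneys, and 46300 to 64800 in fibrotic against 49900 to 52400 in healthy lungs. The part of these cell markers in the collagen changes was not tested.

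Transcripts of other organs moved with some of the comparisons. Of 13 lung epithelial markers, 4 were higher and 1 lower in fibrotic than in healthy kidneys. Over all genes, 23.2% were higher and 15.6% lower. The summed level of these 13 markers was 28100 to 35100 in fibrotic and 26600 to 29400 in healthy kidneys. In fibrotic lungs it was 110000 to 119000 and in healthy lungs 131000 to 133000. Napsa made up most of the kidney sums, at 14.66 to 14.81 in healthy and 14.74 and 14.57 in fibrotic kidneys. Its level in lungs was lower, 12.45 to 13.00. Of the 13 markers, 7 were not above background in any healthy kidney. Among the defining ones, Sftpc was at 9.22 and 7.75 and Sftpd at 9.52 and 8.76 in fibrotic kidneys, while Scgb3a1 and Lamp3 were not above background there. None of these was above background in a healthy kidney. Col8a1, Col14a1, Col15a1 and Col18a1 were higher in both fibrotic kidneys than on every lung array. Col6a1, Col6a2, Col8a2 and Col16a1 were higher on every lung array than in the fibrotic kidneys. How many of all genes separated in either way was not counted, and 43.4% were called between fibrotic kidneys and fibrotic lungs. The part of the lung transcripts in the kidney changes was not tested for any member.

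In the lungs, summed cardiac muscle markers were 4910 to 13600 in fibrotic and 1220 to 69800 in healthy organs, with 0 of 8 called. Adipocyte markers were lower for 3 of 4 in fibrotic lung, with sums of 105 to 284 in fibrotic and 489 to 2460 in healthy lungs. Liver markers summed to 248 to 293 in fibrotic and 250 to 130000 in healthy lungs, with 0 of 9 called. Their sums were 1710 to 12900 in fibrotic and 5710 to 16000 in healthy kidneys, with 1 of 9 lower and 0 higher in fibrotic kidney. The part of the liver transcripts in the kidney changes was not tested. Kidney epithelial markers were lower for 5 of 13 in fibrotic than in healthy kidneys, with sums of 66700 to 93200 in fibrotic and 121000 to 128000 in healthy kidneys. The same markers summed to 1800 to 3280 in fibrotic and 3280 to 3690 in healthy lungs. Cartilage markers gave 0 calls of 3 in each organ. Over all genes, 18.9% were lower in fibrotic lung and 15.6% lower in fibrotic kidney. With the arrays of strong kidney and liver transcripts left out, Col6a1, Col6a2 and Col18a1 were still higher in fibrotic than in healthy lungs. The part of the cardiac and adipocyte transcripts was not tested.

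**Figure D5:**
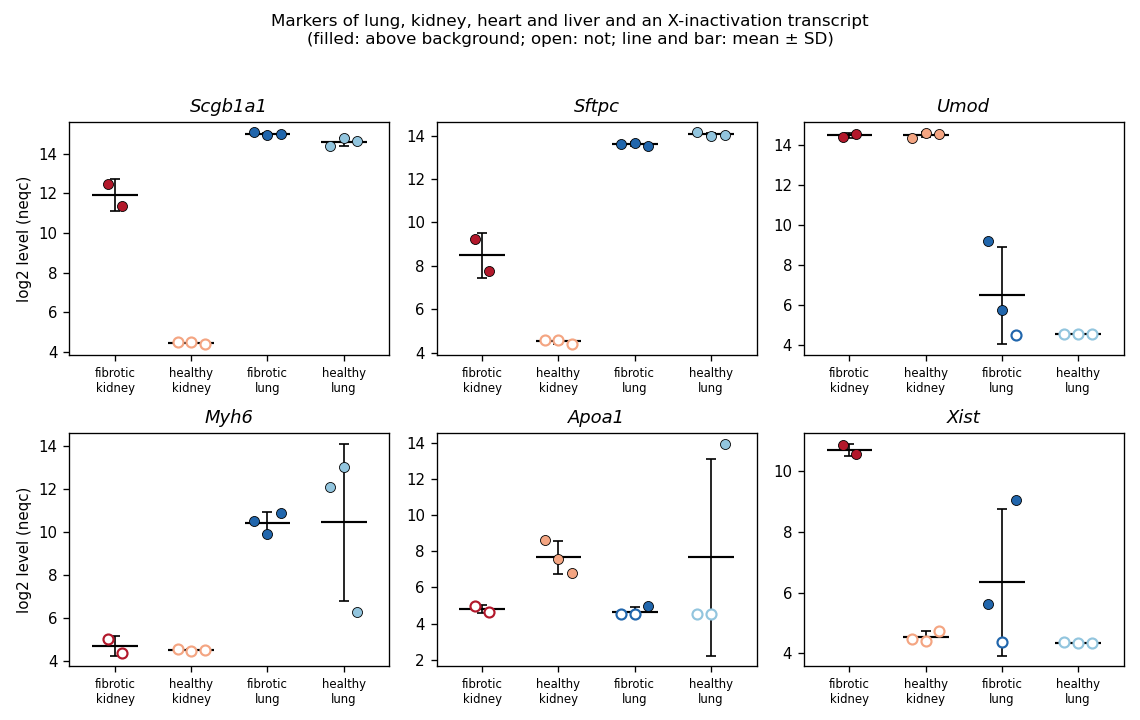
Log2 normalised level (vertical axis) of transcripts typical of airway (Scgb1a1), alveolus (Sftpc), kidney tubule (Umod), heart (Myh6) and liver (Apoa1) and of the X-inactivation transcript Xist on each array, by group; filled points are above background, open points are not, and the line and bar give the mean and SD. Scgb1a1 stands at 12.48 and 11.35 in the fibrotic kidneys and is not above background in the healthy kidneys. Apoa1 stands at 13.94 in 1 healthy lung and at 6.79 to 8.62 in the healthy kidneys.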

How the data were processed

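RNA of 11 whole organs in 4 groups was measured. The submitters' processing notes name GenomeStudio 5.0. The deposited table holds raw intensities with detection p-values, by probe and array, and the authors also deposited processed intensities, which were a straight line of the raw ones on each array to within 0.109 intensity units. Their medians were 16.8 and 16.2 (fibrotic kidney), 28.4, 28.8 and 23.4 (healthy kidney), 18.6, 24.7 and 16.4 (fibrotic lung) and 10.9, 10.9 and 10.6 (healthy lung). No scale or direction stayed unknown.

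From the raw intensities, neqc in limma 3.58.1 (R 4.3.3) corrected background with negative controls inferred from detection p-values (offset 16), quantile normalised and took log2. Probes with detection p under 0.05 on at least 2 arrays were kept (24396). Annotation gave 1 symbol for 34885 probes, several for 18 and none for 10378. A gene took its probe with the highest mean. All 11 arrays were fitted with 1 coefficient per group (lmFit, eBayes; 7 residual and 3.22 prior degrees of freedom), adjusted by Benjamini-Hochberg within a contrast at 0.05. The fit was tested on simulated data. A gene below the detection limit on all arrays of the dimmer group has a bound ("at least N-fold"): the brighter mean against the dim arrays' lowest detected signal, or their own where higher. An adjusted p beside a bound is that of the fitted change, not of the bound.

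Members and lists were chosen with earlier results of these data known. All members are named; list genes are examples with small p. No label or header used here gives slide or scan date. Replicate numbers follow accession order. Titles pair healthy kidneys and lungs by mouse, whereas the descriptions number mice separately; deviations of same-mouse arrays correlated at -0.0699, 0.014 and -0.113. The few arrays limit precision, most of all the 2 fibrotic kidneys. Alternatives were background correction, scaling, the processed intensities, offset, filter, probe rule, samples in the fit, variance model, mouse as a block, and leaving out each array. Leaving out fibrotic lung 1 (kidney transcripts) and healthy lung 3 (liver transcripts) together was chosen after seeing the data. The fibrotic kidneys, with lung transcripts, and the healthy kidneys, with liver transcripts, were kept.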

Additional observations from a re-analysis of the deposited data

Results flagged for a closer look

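For 5 collagen chains the kidney and the lung changed by different amounts, by a test of the kidney change minus the lung change in 1 fit (limma, adjusted over 12865 genes), where 23.9% of all genes were called above 0 and 40% in either direction. The largest of these differences was in Col8a1, at 2.95 (adjusted p = 0.000259), followed by Col15a1 at 2.63 (adjusted p = 0.00148) and Col16a1 at 2.30 (adjusted p = 0.000337). In Col15a1 and Col16a1 the rise passed the test in kidney and not in lung. Their lung rises passed in other settings, that of Col15a1 in 1 of 22 and that of Col16a1 in 3 of 22. Col14a1 differed by 1.31 (adjusted p = 0.0317), with changes of 0.94 in kidney and -0.37 in lung, and Col6a1 by 0.81 (adjusted p = 0.0314), with rises of 1.97 in kidney and 1.16 in lung. The call of Col14a1 was lost in 10 of 21 alternative settings and that of Col6a1 in 8 with its direction kept. In a further setting, with probes averaged, the Col6a1 value turned to -0.084 (adjusted p = 0.778), so its call was lost there too. The fibrotic kidneys also differed from the healthy kidneys in sex-linked transcripts, carried lung transcripts and lacked the liver transcripts Apoa1 and Mup3 seen in healthy kidneys. In this test none of these can be told apart from the obstruction. No group held 4 arrays, so none was tested for a single outlying array.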

How the results depend on the processing

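Over all settings 771 comparisons of a result with its main value kept their direction and side of the threshold, 54 lost a call, 15 gained one and 16 turned. With mouse as a replicate block (consensus correlation -0.0254), 8 members were called in kidney, 4 in lung and 5 for the difference between these changes, and it changed no call of a member. Leaving out each array in turn gave 6 to 8 members in kidney, 4 to 5 in lung, 3 to 5 for their difference, 5 to 6 between healthy organs and 7 to 8 between fibrotic organs. The lung value of Col8a2 turned to 0.21 under common-median scaling, 0.48 with processed intensities and 0.086 without healthy lung 2 (-0.37 to 0.086 over the arrays left out), and that of Col14a1 to 0.21 with processed intensities. The kidney-minus-lung value of Col6a2 turned to -0.74 without background correction, -0.037 under common-median scaling, -0.86 with processed intensities, -0.43 with an offset of 50 and -0.22 with probes averaged. Leaving out 1 array, it ran from -0.14 to 0.17 (-0.12, -0.04, -0.02 and -0.14 without healthy kidney 1, healthy lung 2, healthy lung 3 and fibrotic lung 2). Col18a1 turned to -0.10 with processed intensities and Col6a1 to -0.084 with probes averaged. Col15a1 between healthy organs turned to -0.0035 under common-median scaling. The causes were not tested. Dim signal limits Col8a2, Col6a2 and Col8a1 in healthy kidney.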
